A study of Mus musculus with 7 samples.

Results

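The genes that decide when a dividing cell separates its chromosomes were followed through meiotic maturation of the mouse oocyte. They were chosen by symbol, as 10 of the 25912 entries that each expression table lists: Cdc20 and Fzr1, the activators of the anaphase-promoting complex (APC/C), Pttg1 and Espl1, which encode securin and separase, and 6 genes of the spindle assembly checkpoint, Bub1, Bub1b, Bub3, Mad2l1, Mad1l1 and Ttk. Each symbol matched 1 entry, and all 10 passed the filter on low values (a mean of the 3 group means of at least 1 FPKM), as did 9202 entries in all.

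The APC/C is a ubiquitin ligase that marks securin and cyclin B for destruction. Once securin is gone, separase cuts the cohesin that holds chromosomes together. CDC20 activates the APC/C at the onset of anaphase, whereas CDH1, the product of Fzr1, activates it outside M phase and is known in oocytes for restraining the resumption of meiosis. The checkpoint delays anaphase while kinetochores lack microtubules: the kinases TTK (MPS1) and BUB1 prepare the kinetochore, MAD1 presents MAD2 there, and MAD2, BUBR1 (Bub1b) and BUB3 join CDC20 in an inhibitory complex. A fully grown oocyte does not transcribe during maturation, so it draws these proteins from stored mRNA, some of which is translated only after its poly(A) tail has been lengthened.

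Smart-seq2 libraries of 10 oocytes each, primed with oligo-dT, were available for 3 groups. Fully grown oocytes at the germinal vesicle stage (GV, prophase arrest) gave 2 libraries, oocytes labelled MII (metaphase II) after culture with the solvent DMSO gave 3, and oocytes labelled MII after culture with BYBX gave 2. BYBX is a small molecule that binds and stabilizes RNA G-quadruplexes (rG4s), folds made by runs of guanine. The labels give no treatment for GV, whereas the methods of the study give DMSO for GV controls too. The oocytes came from 4-week-old C57BL/6 females primed with pregnant mare serum gonadotropin. BYBX was at 1 μM in the translation comparisons that draw on such Smart-seq2 levels, whereas the labels of these libraries give no dose. Whether treated oocytes were picked by an extruded polar body is not given in the sources used here. The study reports fewer extruded polar bodies as the BYBX dose rose, and abnormal spindles with unaligned chromosomes in treated oocytes. Their stage is known here only from the label. The labels do not say whether replicates came from separate collections, so the spread between libraries may be technical.

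Values are FPKM that the authors scaled to an external spike-in, so a total can differ between groups. The summed FPKM was 402113 to 489569 in GV, 109732 to 127254 in MII with DMSO and 201482 to 246710 in MII with BYBX. The summed level of 9 oocyte markers, Gdf9, Bmp15 and Zp3 among them, was 11283 to 14796 FPKM in GV, 1824 to 1999.5 in MII with DMSO and 5753 to 6075 in MII with BYBX. Of 12 granulosa and cumulus cell markers, 8 were under 1 FPKM in every library and Ptx3 was listed at 0, and their sum was 6.78 to 14.2 FPKM in GV, 2.11 to 2.39 with DMSO and 2.74 to 3.06 with BYBX. The sum of 5 markers of proliferating somatic cells, which oocytes also express, was 99.9 to 121 FPKM in GV, 35.8 to 44.3 with DMSO and 57.5 to 72.6 with BYBX, and that of 5 blood cell markers was at most 2.01 FPKM in every library. The part of other cells in the results was not tested. Since each library pools oocytes and reads polyadenylated RNA, fewer oocytes holding a transcript, less of it per oocyte and a shorter poly(A) tail cannot be told apart.

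In GV oocytes Pttg1 stood far above the other 9 genes, at 3156 ± 81.2 FPKM (SD, n = 2), with 3 tested entries above it. FPKM is per length, so levels were ordered between genes. That order rests on annotated lengths, and the 3′ ends in use were not measured. Bub1b (318), Cdc20 (187), Fzr1 (113), Ttk (90.9), Mad2l1 (56.8), Bub1 (46.0), Mad1l1 (31.8), Bub3 (30.8) and Espl1 (14.9) followed by mean FPKM. The library ranges of neighbours in this order overlapped for Fzr1 and Ttk, Mad2l1 and Bub1, Bub1 and Mad1l1, and Mad1l1 and Bub3. In MII with DMSO the order became Pttg1, Bub1b, Cdc20, Mad2l1, Espl1, Bub3, Mad1l1, Ttk, Fzr1 and Bub1, with overlapping ranges for Mad1l1 and Ttk and for Ttk and Fzr1. Fzr1 thus moved from rank 4 to rank 9, and Espl1 from rank 10 to rank 5. With BYBX the order was Pttg1, Bub1b, Cdc20, Mad2l1, Fzr1, Ttk, Bub3, Espl1, Bub1 and Mad1l1, and the ranges overlapped for Mad2l1 and Fzr1 and between each neighbouring pair from Bub3 to Mad1l1. The plot of levels by library shows all values.

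**Figure D1:**
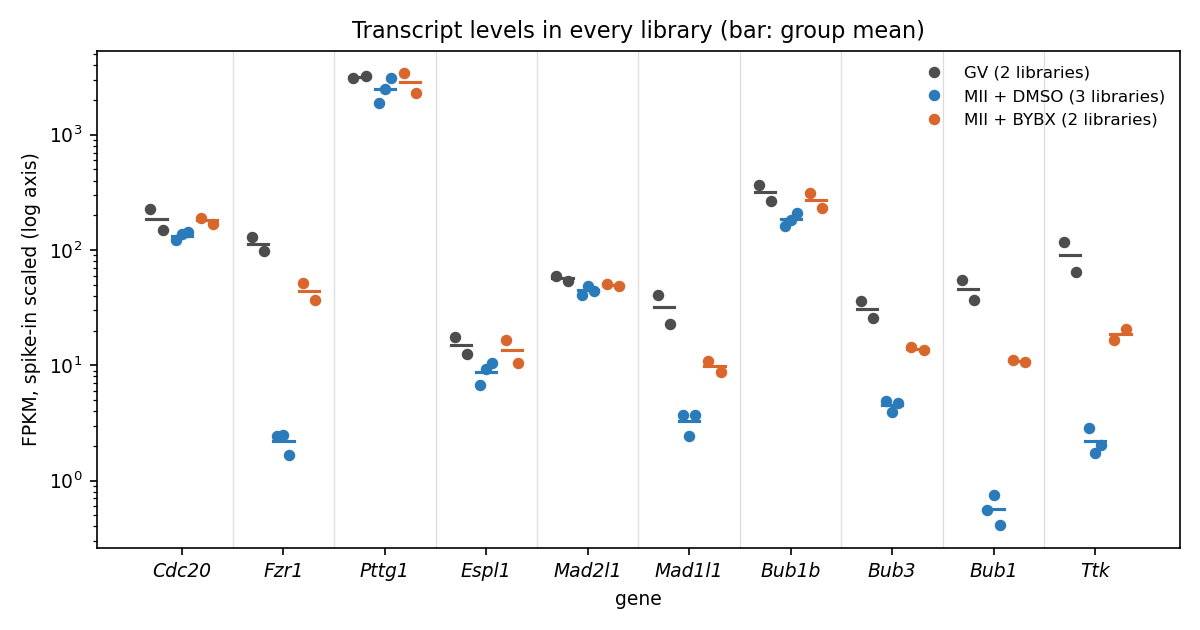
FPKM of the 10 genes (log axis) in each of 2 GV, 3 MII with DMSO and 2 MII with BYBX libraries, with points for libraries and bars for group means. Fzr1, Bub1 and Ttk lie at 1.93%, 1.23% and 2.42% of their GV mean in MII with DMSO and between both other groups with BYBX, whereas Pttg1 and Mad2l1 lie at 79.1% and 78.6% of their GV mean with DMSO.

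The annotated transcripts of the 10 genes were read for 2 kinds of sequence that bear on stored mRNA and on the ligand. The first is the cytoplasmic polyadenylation element (CPE), to which the factor CPEB binds, searched as TTTTAT or TTTTAAT in the last 100 bases of the 3′-UTR together with the poly(A) signal AATAAA or ATTAAA. The second is a run of letters that can fold into an rG4, searched as 4 stretches of G, each 3 or more long and spaced by 1 to 7 letters. Both were searched on the transcript strand only, in 1 GENCODE vM21 transcript a gene (GRCm38, the build called mm10), and matches of the CPE and the poly(A) signal can share bases. Among the 10 genes, 2 held a CPE, Cdc20 and Bub1b, against 20.3% of the 8718 tested entries with such a transcript and 7 of the 44 tested partners described further on. A poly(A) signal was found in 8 of the 10, against 81.5%. The rG4 letters were found in 1 of the 10, in the 5′-UTR of Fzr1, against 17.9% of tested entries anywhere in the transcript and 7.39% in the 5′-UTR. The 3′ ends below belong to the pair with a CPE and, for contrast, to Pttg1, Bub1 and Ttk, with CPE and poly(A) signal in capitals, and the last line gives the Fzr1 site with its G runs in capitals.
Cdc20, 3′-UTR, chr4:118432911-118432940, minus strand: TTTTATTTTATtttttctAATAAAgttcgt
Bub1b, 3′-UTR, chr2:118641556-118641585, plus strand: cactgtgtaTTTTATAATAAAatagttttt
Pttg1, 3′-UTR, chr11:43420274-43420303, minus strand: tatgtatgttgtattAATAAAgcatttgtg
Bub1, 3′-UTR, chr2:127801127-127801156, minus strand: atgtttaaaaaaAATAAAgcccatatgata
Ttk, 3′-UTR, chr9:83872349-83872378, plus strand: aagagctctgtaAATAAAgcgtcaccacag
Fzr1, 5′-UTR, chr10:81378431-81378456, minus strand: GGGacagattGGGGGaGGGagtcGGG
A match is a description of letters, not a site in use. The 3′ ends used by these oocytes were not measured, and Mad2l1 has a second annotated transcript, with a 3′-UTR of 1048 bases in place of 6802, that does hold a CPE. The 3′-UTR was 62 bases in Cdc20, 55 in Pttg1, 272 in Bub1b, 142 in Espl1, 121 in Bub1 and 318 in Ttk, with a median of 295 over the 10 against 937 over the tested entries.

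The first comparison, MII with DMSO against GV, asks what normal maturation does to these transcripts. Fzr1, Bub1 and Ttk fell the furthest, Mad1l1 and Bub3 fell by less, and Pttg1, Mad2l1, Cdc20, Bub1b and Espl1 kept more than 58% of their GV mean as deposited, and crossed to higher values under both other scalings. By limma, 7 of the 10 genes were lower, beside 88.3% of tested entries called lower, and all 10 log2 fold changes were below 0. The median log2 fold change of the 10 was -1.64, and that of all 9202 entries was -1.83. The counts rest on the deposited spike-in scale: with every library set to the same total FPKM 5 of the 10 were higher and 5 lower, and after median centring 5 were higher and 4 lower. The median of all entries then moved from -1.83 to -0.56 and 0.47. With equal totals limma called 2141 of all 9202 entries up and 4557 down, and with median centring 4494 up and 2456 down. After centring, 5 of 10 genes called up was thus near the share of all entries.

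Of the APC/C activators, Fzr1 had 129 and 97.0 FPKM in GV and 2.42, 2.48 and 1.67 FPKM in MII with DMSO. The groups lay far apart, and the mean fell 51.7-fold, from 113 ± 22.8 (SD, n = 2) to 2.19 ± 0.451 (SD, n = 3). Its log2 fold change was -5.16 ± 0.27 (SE, limma adjusted p = 8.3e-10), below that of all but 3.17% of tested entries. Cdc20 had 226 and 149 FPKM in GV and 121, 137 and 142 in MII with DMSO. All 3 MII libraries lay below both GV libraries, yet the log2 fold change of -0.46 (95% interval -1.01 to 0.09) did not pass the test (limma adjusted p = 0.106). Without GV replicate 2 it was -0.76 and passed (limma adjusted p = 0.0232). Relative to the median of all entries Cdc20 was 1.37 log2 units up, and at the same total FPKM its log2 fold change turned to 1.42, called higher by limma (adjusted p = 5.1e-05).

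Pttg1, the inhibitor and chaperone of separase, had 3099 and 3214 FPKM in GV and 1897, 2504 and 3087 in MII with DMSO. The MII values reached up to the lower GV value without overlapping it. The log2 fold change of -0.37 (95% interval -0.90 to 0.17) did not pass (limma adjusted p = 0.176). In MII with DMSO only 1 tested entry had a higher mean. Espl1 had 17.4 and 12.4 FPKM in GV and 6.74, 9.29 and 10.4 in MII with DMSO, a log2 fold change of -0.70 (limma adjusted p = 0.0302) that turned to 1.03 at the same total FPKM. Its call was lost without GV replicate 1 (-0.47, limma adjusted p = 0.231), without MII with DMSO replicate 1 (-0.54, limma adjusted p = 0.101) and with no filter on low values (limma adjusted p = 0.0645).

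Among the checkpoint genes, the kinases Bub1 and Ttk fell the most. Bub1 had 55.0 and 37.1 FPKM in GV and 0.551, 0.741 and 0.409 in MII with DMSO, which was 1.23% of the GV mean. Ttk had 117 and 64.7 FPKM in GV and 2.84, 1.72 and 2.04 in MII with DMSO, or 2.42%. Their log2 fold changes were -4.89 ± 0.24 (limma adjusted p = 6.7e-10) and -4.80 ± 0.29 (limma adjusted p = 2.9e-09), and no MII library came near a GV library. Both stayed lower by limma with equal totals (-3.59 and -3.18) and median centred (-2.58 and -2.50).

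Mad1l1, the kinetochore anchor of MAD2, had 40.9 and 22.8 FPKM in GV and 3.73, 2.42 and 3.73 in MII with DMSO. Bub3, the adaptor that carries BUB1 and BUBR1 to the kinetochore, had 35.8 and 25.9 FPKM in GV and 4.91, 3.94 and 4.73 in MII with DMSO. The groups of each gene were well apart, with log2 fold changes of -2.89 (limma adjusted p = 3.5e-07) and -2.51 (limma adjusted p = 2.9e-07). After median centring Mad1l1 was still lower (-0.59, limma adjusted p = 0.0394), whereas Bub3 was not called (-0.21, limma adjusted p = 0.31). The median of all entries was then 0.47.

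Their partners in the checkpoint kept more. Mad2l1 had 59.4 and 54.1 FPKM in GV and 40.8, 48.9 and 44.2 in MII with DMSO, a log2 fold change of -0.34 (95% interval -0.86 to 0.17) that did not pass (limma adjusted p = 0.188). Bub1b had 369 and 266 FPKM in GV and 162, 184 and 208 in MII with DMSO. Its log2 fold change of -0.77 passed (limma adjusted p = 0.013) and turned to 1.11 at the same total FPKM, but it did not pass without GV replicate 1 (-0.54, limma adjusted p = 0.128). For each of the 10 genes the 3 MII libraries lay below both GV libraries as deposited, where 88.3% of all tested entries were called lower. The share of all entries with such a gap was not counted, so the gap cannot be called particular to these genes. Under both other scalings Mad2l1, Bub1b, Pttg1, Espl1 and Cdc20 were all called higher in MII. Against the tested entries their log2 fold changes were high: 93.8% of entries had a lower one than Mad2l1, 93.3% than Pttg1, 91.1% than Cdc20, 84.3% than Espl1 and 82.0% than Bub1b.

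The second comparison, MII with BYBX against MII with DMSO, asks what the rG4 ligand changes. Transcripts that fell the furthest during maturation were higher with BYBX, Fzr1 20.2-fold, Bub1 19.2-fold and Ttk 8.47-fold by group means. Bub3 and Mad1l1 were both about 3-fold higher. The DMSO mean of Bub1 was 0.567 FPKM, under the pseudocount of 1. Its fold by means thus rests on a value near the floor and is larger than the fitted change given below. By limma 5 of the 10 genes were higher, beside 65.2% of tested entries called higher, and all 10 log2 fold changes were above 0. The median log2 fold change was 0.95 over the 10 and 0.84 over all entries. At the same total FPKM 4 of the 10 were higher and 3 lower, and after median centring 3 were higher and 5 lower, with the median of all entries at 0.34 and -0.44. Among all entries, limma called 3672 up and 756 down with equal totals, against 1696 up and 4040 down with median centring. Both comparisons share the MII with DMSO libraries, so a low value there enters each.

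Fzr1 had 51.7 and 36.8 FPKM with BYBX, where the highest library with DMSO had 2.48. The log2 fold change was 3.82 ± 0.27 (limma adjusted p = 9.3e-08), above that of 98.3% of tested entries, and it stayed called with equal totals (3.17) and median centred (2.54). Bub1 had 11.1 and 10.7 FPKM with BYBX against at most 0.741 with DMSO, and Ttk 16.5 and 20.7 against at most 2.84. Their log2 fold changes were 2.93 ± 0.24 (limma adjusted p = 3.4e-07) and 2.62 ± 0.29 (limma adjusted p = 4.1e-06). Both stayed called with equal totals (2.59 and 1.98) and median centred (1.65 and 1.35). Bub3 had 14.3 and 13.6 FPKM with BYBX, above all 3 libraries with DMSO, a log2 fold change of 1.44 (limma adjusted p = 0.00017). Mad1l1 had 11.0 and 8.78 FPKM with BYBX, likewise above all 3, a log2 fold change of 1.35 (limma adjusted p = 0.001). After median centring neither was called, at 0.16 and 0.072, where the median of all entries was -0.44. Mad1l1 was not called at the same total FPKM either (0.63, limma adjusted p = 0.0681).

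The other 5 genes did not pass between the MII groups. Cdc20 had 191 and 169 FPKM with BYBX, above all 3 libraries with DMSO, and a log2 fold change of 0.43 (95% interval -0.12 to 0.99, limma adjusted p = 0.153). Bub1b had 312 and 230 FPKM with BYBX, also above all 3, at 0.54 (95% interval -0.02 to 1.10, limma adjusted p = 0.081). Mad2l1 had 50.4 and 49.0 FPKM, just above the highest library with DMSO, at 0.15 (95% interval -0.36 to 0.67, limma adjusted p = 0.572). Each of the 5 genes had a value below 0 under both other scalings. Pttg1 had 3404 and 2316 FPKM with BYBX, overlapping the libraries with DMSO, at 0.20 (95% interval -0.34 to 0.73, limma adjusted p = 0.487), and at -0.080 without MII with BYBX replicate 1. Espl1 had 16.4 and 10.4 FPKM, of which the lower lay just above the highest library with DMSO, at 0.55 (95% interval -0.06 to 1.15, limma adjusted p = 0.102), and it passed without MII with BYBX replicate 2 (0.85, limma adjusted p = 0.0434). Where the groups were apart for these genes, the gaps were small beside those of Fzr1, Bub1 and Ttk.

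**Figure D2:**
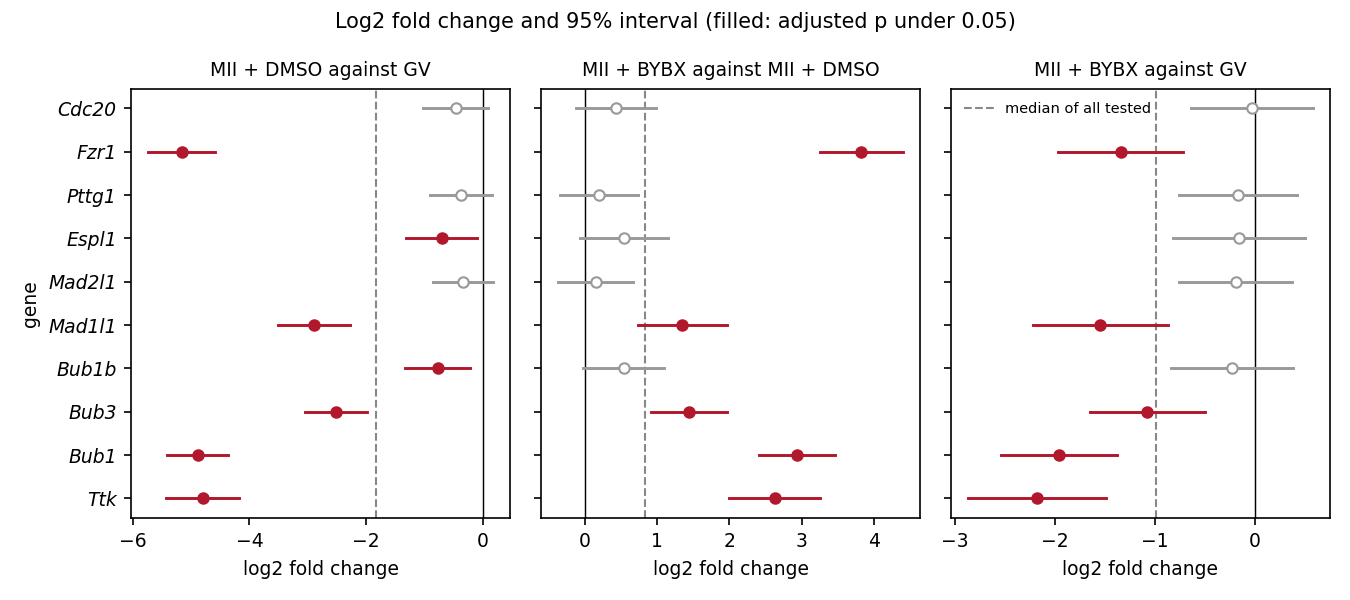
Log2 fold change on the log2(FPKM + 1) scale with its 95% interval for the 10 genes in the 3 comparisons, filled in red where the limma adjusted p was under 0.05, with the median of all tested entries as a dashed line (-1.83, 0.84 and -0.99). Fzr1, Bub1 and Ttk stand furthest from 0 in MII with DMSO against GV and between the MII groups, and the 5 open points between the MII groups lie between 0 and the dashed line and change sign under the other scalings.

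The third comparison, MII with BYBX against GV, asks how far the treated oocytes were from the stage they started at. By limma 5 of the 10 genes were lower, beside 69.2% of tested entries called lower, and all 10 log2 fold changes were below 0, with a median log2 fold change of -0.65 over the 10 and -0.99 over all entries. At the same total FPKM, and again after median centring, 5 were higher and 2 lower. The median of all entries was then -0.17 and 0.04. The calls among all entries were 488 up and 1222 down with equal totals, and 1397 up and 1250 down with median centring. Against both GV libraries the BYBX libraries were lower for Ttk at 20.5% of the GV mean, Bub1 at 23.7%, Mad1l1 at 31.0%, Fzr1 at 39.1% and Bub3 at 45.3%. The log2 fold changes were -2.18 for Ttk (limma adjusted p = 0.0001), -1.96 for Bub1 (limma adjusted p = 7.7e-05), -1.54 for Mad1l1 (limma adjusted p = 0.00078), -1.34 for Fzr1 (limma adjusted p = 0.0013) and -1.07 for Bub3 (limma adjusted p = 0.0031). Only Ttk and Bub1 of these stayed called under both other scalings. Cdc20 stood at 96.2% of its GV mean, Pttg1 at 90.6%, Espl1 at 90.0%, Mad2l1 at 87.5% and Bub1b at 85.3%. As deposited, none of these 5 passed, with limma adjusted p from 0.486 to 0.932, whereas under both other scalings all 5 were called higher than GV. For 4 of them the BYBX libraries overlapped the GV libraries as deposited, while those of Mad2l1 lay below both. On the deposited scale the 95% interval of Cdc20 ran from -0.64 to 0.58, so with 2 libraries a group changes within that range remained compatible. Cdc20 lay outside it at the same total FPKM (0.96, limma adjusted p = 0.0227) and median centred (0.997, limma adjusted p = 0.0133).

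**Figure D3:**
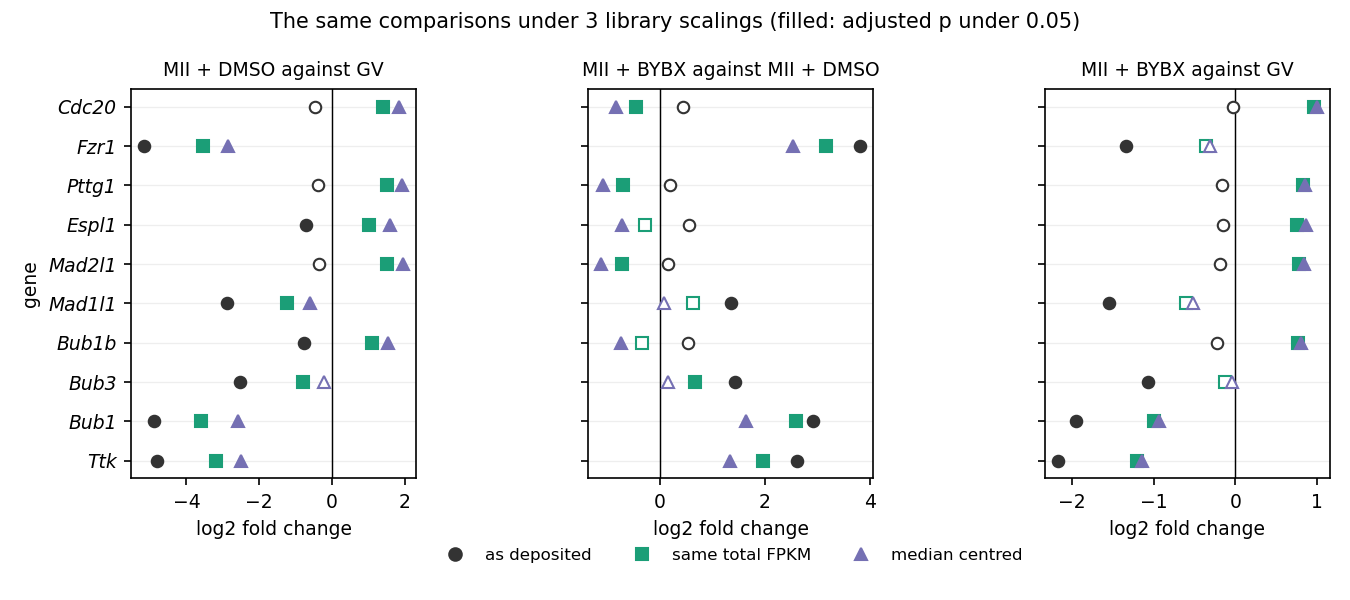
Log2 fold change of the 10 genes in the 3 comparisons with libraries as deposited (circles), at the same total FPKM (squares) and median centred (triangles), filled where the limma adjusted p was under 0.05. Fzr1, Bub1 and Ttk keep their side of 0 under each scaling, as do Mad1l1 and Bub3, whereas Cdc20, Pttg1, Espl1, Mad2l1 and Bub1b cross it in all 3 comparisons.

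Ratios of a pair of genes within a library do not depend on the scale of that library, apart from the pseudocount of 1, and so bear on how the members' proportions shifted. Cdc20 over Fzr1, the activator of anaphase over that of interphase, was 1.74 and 1.54 in GV by FPKM, 50, 55.3 and 85.3 in MII with DMSO and 3.69 and 4.60 with BYBX. The 3 groups did not overlap. The mean log2 ratio was 4.70 above GV in MII with DMSO (exact two-sided permutation p = 0.1, Benjamini-Hochberg 0.167 over 15 tests) and differed by -3.39 between BYBX and DMSO (exact permutation p = 0.1, adjusted 0.167). A p of 0.1 is the smallest that 2 against 3 libraries can give, and with 2 against 2 the smallest is larger, so none of the 15 tests could pass 0.05.

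Both checkpoint pairs had the same order of groups. Like Cdc20 over Fzr1, each sets a gene that kept more over one that fell further. The order thus restates the fold changes above. Mad2l1 over Mad1l1, which act as a complex, was 1.45 and 2.38 in GV, 10.9, 20.2 and 11.9 in MII with DMSO and 4.59 and 5.58 with BYBX. Bub1b over Bub3, partners in the checkpoint complex, was 10.3 in both GV libraries, 33.0, 46.7 and 43.9 in MII with DMSO and 21.8 and 16.9 with BYBX. Neither pair overlapped between groups, with mean log2 ratios 2.55 and 1.74 above GV in MII with DMSO and differences of -1.20 and -0.90 between BYBX and DMSO (exact permutation p = 0.1 for each). Pttg1 over Espl1 stayed in a narrower range. Its FPKM ratio was 178 and 258 in GV, 282, 270 and 298 in MII with DMSO and 207 and 222 with BYBX, a mean log2 difference of 0.34 between MII with DMSO and GV and of -0.35 between the MII groups (exact permutation p = 0.1 for each). Bub1b over Cdc20 was 1.64 and 1.79 in GV, 1.34, 1.34 and 1.46 in MII with DMSO and 1.63 and 1.36 with BYBX, where the MII groups overlapped (mean log2 difference 0.11, exact permutation p = 0.5, adjusted 0.536).

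**Figure D4:**
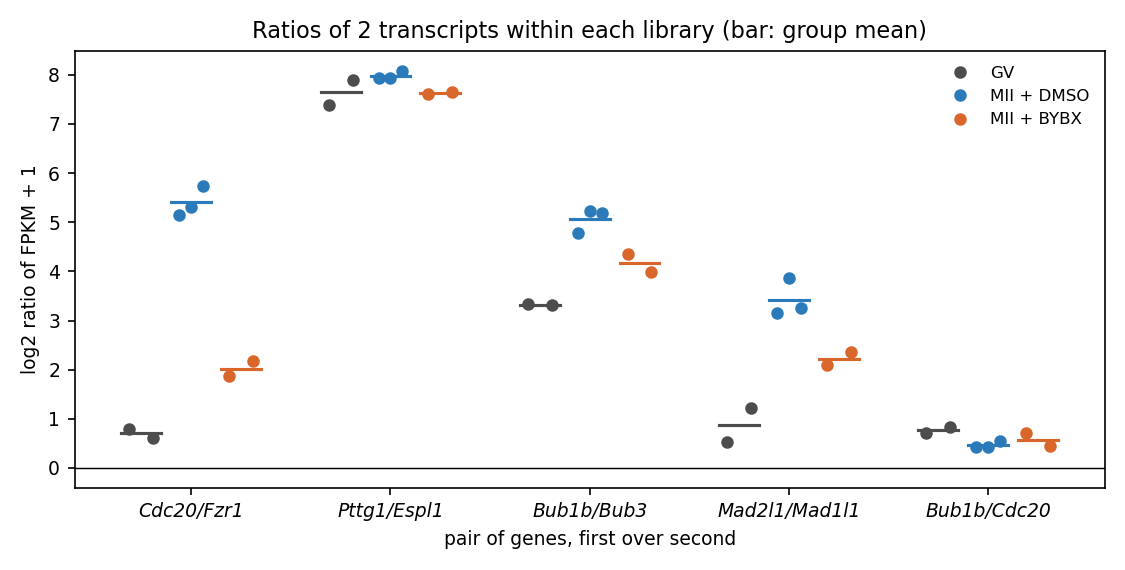
Log2 ratio of FPKM + 1 for 5 pairs of genes within each library, with points for libraries and bars for group means in GV, MII with DMSO and MII with BYBX. For Cdc20/Fzr1, Bub1b/Bub3 and Mad2l1/Mad1l1 the BYBX libraries sit between the other groups, and for Pttg1/Espl1 and Bub1b/Cdc20 all 7 libraries lie within about 1 log2 unit.

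Some tested genes had profiles much like those of single members. Over the 7 libraries, which fall into 3 groups, the highest Pearson correlations of log2(FPKM + 1) with Fzr1 were those of Commd9 (r = 0.999) and Eif3g (r = 0.999). Eif3g, a subunit of the translation initiation factor eIF3, had 325 and 295 FPKM in GV, 1.52, 2.33 and 1.25 in MII with DMSO and 103 and 73.7 with BYBX. With Cdc20 they were those of Rcan3 and Srsf4 (r = 0.983 and 0.982), of which Srsf4, a splicing factor, had 67.3 and 42.6 FPKM in GV, 37.2, 38.5 and 38.4 in MII with DMSO and 54.9 and 48.8 with BYBX. With Mad2l1 they were those of Ddx19b (r = 0.991) and Hnrnpr (r = 0.984), both with at most 5.08 FPKM in any library. These values describe likeness over libraries that share their group and scale.

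The partners of these genes were taken from 4 lists of 47 genes, of which 44 were tested. By limma 36 were lower in MII with DMSO against GV (88.3% of all tested entries were), 28 were higher between the MII groups (65.2% of all entries) and 26 were lower in MII with BYBX against GV (69.2% of all entries), shares near or below those of all entries. Without GV replicate 1 the last count was 17. In each comparison 2 of the 44 had a log2 fold change on the other side of 0, none of them with an unadjusted p under 0.05. Their median log2 fold changes were -1.65, 0.78 and -0.82. As among the 10 genes, the counts rest on the deposited scale: at the same total FPKM 19 were lower and 13 higher in the first of these comparisons, 15 higher and 8 lower in the second, and 3 lower and 2 higher in the third. After median centring the balance turned, with 12 lower against 21 higher in the first, 19 lower against 7 higher in the second, and 4 lower against 8 higher in the third. The counts of all entries on both scales are given above with the 10 genes.

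All 14 APC/C subunits were tested, and 12 fell in MII with DMSO (median log2 fold change -2.43) and 11 were higher with BYBX (median 1.45), beside 88.3% and 65.2% of all tested entries. The highest in GV were Anapc4 (133 FPKM) and Anapc16 (118 FPKM). Between the MII groups the log2 fold change was largest for Anapc15 (2.32), a subunit that helps release the checkpoint complex, and Anapc4 (2.26), a scaffold subunit. It was smallest for Anapc10 (0.02, limma adjusted p = 0.934), which helps the complex hold its substrates, and Cdc26 (0.14, limma adjusted p = 0.673). Anapc10 had 20.2 and 20.5 FPKM in GV, 14.7, 19.0 and 21.6 in MII with DMSO and 21.7 and 15.8 with BYBX, so its groups overlapped throughout.

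Of 5 inhibitors and ubiquitin-conjugating partners, 3 fell in MII with DMSO (median -0.92) and 2 were higher with BYBX (median 0.59), both smaller shares than the 88.3% and 65.2% of all entries. The enzymes Ube2c and Ube2s, which start and extend ubiquitin chains for the APC/C, were the highest in GV at 249 and 178 FPKM. Ube2c had 259 and 239 FPKM in GV, 21.2, 26.3 and 32.5 in MII with DMSO and 142 and 100.1 with BYBX, a log2 fold change of 2.14 between the MII groups (limma adjusted p = 1.4e-05). Fbxo5 (EMI1), an inhibitor that holds the APC/C off in prophase, was at 1.36 between the MII groups (limma adjusted p = 0.00031) and no longer called after median centring (0.079, limma adjusted p = 0.699). Fbxo43 (EMI2), the inhibitor that holds the egg at metaphase II, had 77.3 and 50.8 FPKM in GV, 36.4, 46.0 and 40.3 in MII with DMSO and 55.2 and 43.7 with BYBX. The MII groups of Fbxo43 overlapped, and its log2 fold change of 0.26 did not pass (limma adjusted p = 0.390). Ube2d1 was at -0.07 (limma adjusted p = 0.826).

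Of 17 tested kinetochore and checkpoint partners, 15 fell in MII with DMSO (median -2.30) and 11 were higher with BYBX (median 0.87), about the 88.3% and 65.2% of all entries. Dsn1 and Nuf2, structural parts of the kinetochore, were the highest in GV at 158 and 109 FPKM. Between the MII groups the log2 fold change was largest for Zw10 (3.02) and Zwilch (2.10), members of the complex that recruits MAD1 and MAD2 to kinetochores. Zw10 had 62.8 and 45.8 FPKM in GV, 1.25, 1.51 and 1.80 in MII with DMSO and 27.0 and 13.8 with BYBX. Zwilch had 23.8 and 20.5 FPKM in GV, at most 0.515 in MII with DMSO and 4.64 and 4.84 with BYBX. It was smallest for Knl1 (0.12, limma adjusted p = 0.644), the scaffold for BUB proteins, and for the motor Cenpe (0.21, limma adjusted p = 0.465).

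Of 8 tested genes of cohesin and its protectors, 6 fell in MII with DMSO (median -0.98) and 4 were higher with BYBX (median 0.56), smaller shares than the 88.3% and 65.2% of all entries, while the meiotic cohesin gene Rec8 was listed at 0 in all 7 libraries. Ppp2r1a, the scaffold of the phosphatase that protects cohesin, and Pttg1ip, which encodes a securin-binding protein, were the highest in GV at 74.3 and 65.3 FPKM. Between the MII groups the log2 fold change was largest for Smc1b (0.81), a meiotic cohesin subunit, and Pttg1ip (0.79), and smallest for Rad21 (-0.29, limma adjusted p = 0.468) and Sgo2a (0.26, limma adjusted p = 0.390), the protector of centromeric cohesin. Rad21 was called lower at the same total FPKM (-1.15, limma adjusted p = 0.015) and after median centring (-1.57, limma adjusted p = 0.00406). Neither Smc1b nor Pttg1ip was called at the same total FPKM, and under median centring the values of both between the MII groups were below 0. Pttg1ip was also not called without MII with DMSO replicate 2 (0.61, limma adjusted p = 0.125) or without MII with BYBX replicate 2 (0.58, limma adjusted p = 0.195).

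**Figure D5:**
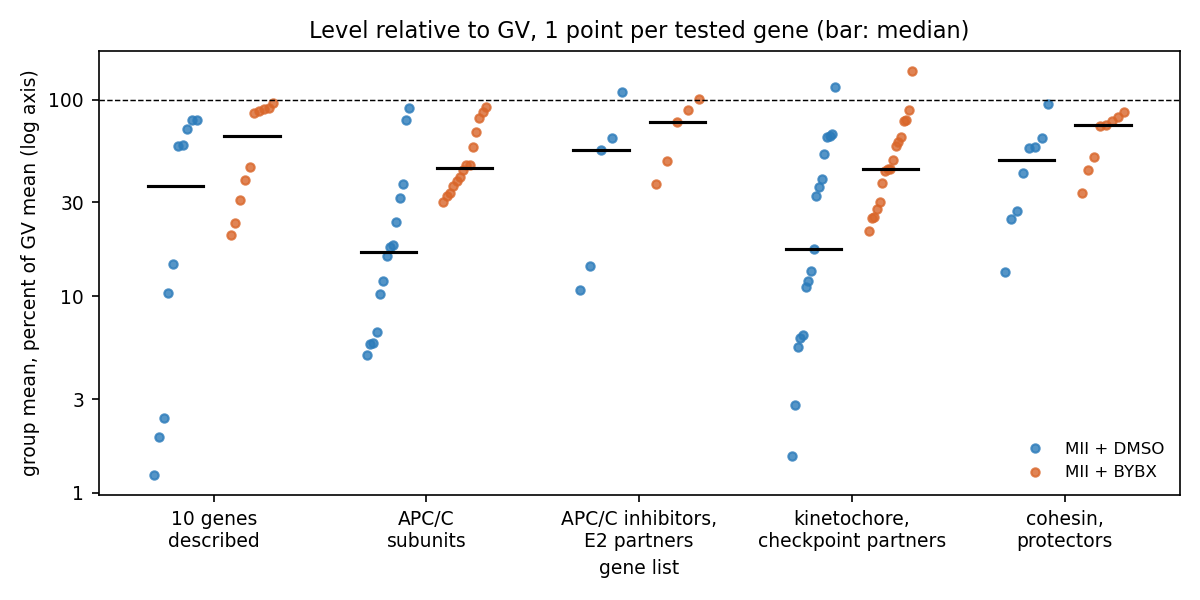
Mean FPKM in MII with DMSO and in MII with BYBX as a percent of the GV mean (log axis), 1 point for each tested gene, for the 10 genes and 4 lists of their partners, with bars at the medians. On the deposited scale the median of the 10 genes is 36.4% with DMSO and 65.3% with BYBX, and that of the 14 APC/C subunits is 16.9% and 45.2%.

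Across the tested entries with a transcript, the 1499 with both a CPE and a poly(A) signal had a median log2 fold change of -1.13 in MII with DMSO against GV, and the 6948 without a CPE one of -1.99. Between the MII groups the medians were 0.53 and 0.92. Cdc20 (-0.46) and Bub1b (-0.77) lay above the first median, and so did Pttg1 (-0.37), Espl1 (-0.70) and Mad2l1 (-0.34), whose chosen transcripts held no CPE. The 1562 entries with rG4 letters had a median of 0.77 between the MII groups and the 7156 without them one of 0.86. Fzr1, with such letters, was at 3.82, and Bub1 and Ttk, without them, were at 2.93 and 2.62. The study mapped rG4s in oocytes with an antibody, and that map was not used here. Missing letters thus do not show that a transcript held no rG4. Exons of 3 of the 10 genes share bases with a gene on the other strand (Cdc20 2.84%, Mad1l1 1.01% and Fzr1 0.0891% of exon bases), which the reads, carrying no strand, could not separate.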

How the data were processed

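The authors trimmed reads with Trim Galore 0.6.7, aligned them to mm10 with HISAT2 2.2.1 and computed FPKM from uniquely mapped reads with Cufflinks 2.2.1 on UCSC gene models. They scaled the deposited FPKM to ERCC spike-ins and, between batches, to GV samples. The factors, the batch of each library and the depth are not given in the sources used here, so no counting interval can be given. The precision is that of 2 or 3 libraries per group.

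Tables were joined by entry, and 4 entries with a missing value were left out. Log2(FPKM + 1) of 9202 entries (those whose 3 group means averaged 1 FPKM or more) was fitted with limma 3.58.1 in R 4.3.3 (lmFit, eBayes with trend, 3 group means, 7 libraries). Adjusted p are Benjamini-Hochberg over all 9202 entries, called under 0.05. Ratios were compared by exact two-sided permutation tests (scipy 1.17.1). The limma script was run on simulated data in which few entries changed and no shift was shared by all. These data differ from that setting, so the run does not vouch for their calls. Transcripts were matched by symbol to GENCODE vM21, taking the APPRIS principal and then the longest protein-coding transcript.

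The members and lists were chosen with earlier results of these data known. Named partners are, in each list, the 2 with the highest GV mean and the 2 with the largest and the 2 with the smallest log2 fold change between the MII groups, and similar genes are the 2 with the highest correlation. Alternatives were a pseudocount of 0.1, a filter at 5 FPKM and none, the same total FPKM, median centring, a replicate block and leaving out each library.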

Additional observations from a re-analysis of the deposited data

How the results depend on the processing

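Fits with a pseudocount of 0.1, a filter at 5 FPKM, no filter and the replicate block left every count of called genes, among the 10 genes and among their partners, within 1.5 times of the value given. The counts that moved did so with the scale. At the same total FPKM, the 10 genes gave 5 higher in MII with DMSO against GV, 3 lower between the MII groups, and 5 higher with 2 lower in MII with BYBX against GV, and the partners gave 13 higher with 19 lower, 15 higher with 8 lower, and 2 higher with 3 lower. After median centring, the 10 genes gave 5 higher with 4 lower, 3 higher with 5 lower, and 5 higher with 2 lower in these comparisons, and the partners 21 with 12, 7 with 19, and 8 with 4. The counts of all entries on both scales are given above with each comparison. The first scaling equalizes library totals and the second library medians, so each takes out much of a change that all genes share, but not all of it. The median log2 fold change of all entries was then -0.56 and 0.47 in MII with DMSO against GV, and 0.34 and -0.44 between the MII groups. Which scale is right was not tested.

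Log2 fold changes that turned sign at the same total FPKM were, in MII with DMSO against GV, Cdc20 1.42, Pttg1 1.52, Espl1 1.03, Bub1b 1.11 and Mad2l1 1.51. With BYBX against DMSO they were Cdc20 -0.46, Pttg1 -0.70, Espl1 -0.28, Bub1b -0.35, Mad2l1 -0.73, Anapc10 -0.84, Cdc26 -0.68, Cenpe -0.66, Fbxo43 -0.61, Knl1 -0.50, Sgo2a -0.55 and Pttg1ip -0.077. In MII with BYBX against GV they were Cdc20 0.96, Pttg1 0.82, Espl1 0.75, Bub1b 0.76 and Mad2l1 0.78. After median centring they were Cdc20 1.84, Pttg1 1.94, Espl1 1.60, Bub1b 1.53 and Mad2l1 1.96 in MII with DMSO against GV. Between the MII groups they were Cdc20 -0.85, Pttg1 -1.08, Espl1 -0.73, Bub1b -0.73, Mad2l1 -1.12, Anapc10 -1.25, Cdc26 -1.14, Cenpe -1.07, Fbxo43 -1.01, Knl1 -1.16, Sgo2a -1.02, Pttg1ip -0.49 and Smc1b -0.47. In MII with BYBX against GV they were Cdc20 0.997, Pttg1 0.86, Espl1 0.87, Bub1b 0.80 and Mad2l1 0.84.

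Leaving out each library in turn gave 17 to 27 partners lower in MII with BYBX against GV, the fewest without GV replicate 1, and moved no other count by over 1.5 times. Values that crossed 0 without 1 library were, in MII with BYBX against GV, Bub1b (-0.46 to 0.0078), Cdc20 (-0.32 to 0.27), Espl1 (-0.46 to 0.15), Pttg1 (-0.45 to 0.11) and the log2 ratio of Pttg1 to Espl1 (-0.27 to 0.24). The values between both MII groups were Pttg1 (-0.080 to 0.48), Anapc10 (-0.19 to 0.24), Cdc26 (-0.15 to 0.43), Cenpe (-0.014 to 0.43), Knl1 (-0.038 to 0.24), Rad21 (-0.64 to 0.023), Ube2d1 (-0.26 to 0.12) and the log2 ratio of Bub1b to Cdc20 (-0.021 to 0.24).

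Replicate numbers are shared by groups, but no label says what a number stands for. Deviations of same-numbered libraries correlated at 0.49 and 0.28 between GV and MII with DMSO. Between the MII groups they correlated at -0.60 and -0.35, and between GV and MII with BYBX at -0.33. In a group of 2 libraries the deviations mirror each other, so these values cannot tell whether same-numbered libraries share more than a number. Under the replicate block 7, 5 and 5 of the 10 genes were called in the 3 comparisons, with no call changed, and of the named partners Pttg1ip was no longer called (0.82, limma adjusted p = 0.0619) and Knl1 was at -0.038 between the MII groups. With crossed numbers, an alternative chosen after seeing the data, 8, 7 and 5 of the 10 genes were called, and Knl1 was again at -0.038.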
